A study of Mus musculus with 16 samples.

Results

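The genes examined here encode the extracellular matrix, the integrin receptors that bind it, and the proteases and inhibitors that act on it. Members were all probes whose gene symbol in the platform annotation names a collagen chain, a laminin chain, an integrin chain, a thrombospondin, a fibulin, a matrix metalloproteinase (MMP) or a tissue inhibitor of metalloproteinases (TIMP), or is Fn1, Sparc, Lum, Dcn, Bgn, Nid1, Eln or Vtn. The rule gave 127 probes for 81 genes, out of 12771 annotated probes for 9030 genes on an array of 20794 probes. None of these probes was named Lum or Nid1. By role they held 73 probes for 45 matrix proteins, 26 probes for 18 integrin chains, 25 probes for 16 MMPs and TIMPs, and 3 probes for Itgb1bp2 and Itgb3bp. The symbols of these last genes match the pattern for integrin chains, but the genes encode proteins that bind an integrin tail, so they were kept as a class of their own. The rule used names only, and 126 of the 127 probes could be tested in each tissue. The remaining probe, Mmp12 probe 20352, had too few mice with a value on both arrays.

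The tested samples were spleens and thymuses of 4 male EMP3 mutant mice aged 17 weeks, and the control was a pool of RNA from male wild-type mice of the same age and tissue. The labels do not say which mutation the mice carry or whether it affects every tissue. Each mouse and tissue was hybridised on 2 two-colour arrays with the dyes exchanged, which gave 8 arrays per tissue. The pool holds 4 mice in the channel labels and 6 in the labelling protocol. The series title names thymus and brain, while the sample labels name spleen and thymus and were followed.

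Collagens are triple helices built from 3 alpha chains: fibrillar types give tensile strength, and type IV forms the sheet of the basement membrane together with the laminins. Integrins are pairs of an alpha and a beta chain that span the cell membrane and tie the matrix to the cytoskeleton. MMPs cut matrix proteins and TIMPs block them. In spleen the matrix is made largely by reticular fibroblasts and vessels, and integrins guide the entry and retention of blood cells. In bulk tissue, fewer cells of a type and less RNA per cell cannot be told apart.

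All values below are log2 ratios of EMP3 mutant over wild-type pool, averaged over the 2 arrays of a mouse. Neither the scale nor the direction is stated in the labels: log2 was read from the values and mutant over pool is the likely direction. If the pool is the numerator, every sign below turns round. A second doubt is whether the sign of the arrays with the mutant in Cy3 had been turned before deposit, as taken here. Under the other reading no member passed in spleen in limma at an adjusted p of 0.05, although 21 of 126 had an unadjusted p under 0.05. Over the whole array 1 probe passed in limma under that reading, and 4217 of 20127 had an unadjusted p under 0.05. Pearson's r between the dye-exchanged arrays of a mouse was 0.052 to 0.424 in spleen, but -0.44 to -0.249 in thymus for mice 1, 3 and 4. For mouse 2 the thymus arrays mirrored each other almost exactly (r = -0.922), and this mouse was left out there. Values are therefore means of 4 spleens and 3 thymuses. Only ratios and no intensities are in the files. Depth is therefore unknown, the number of mice limits the precision, and tissue markers could not be checked as levels. The pool counts as 1 control sample, and its own spread is not in the tests. The targeted gene was not lower in either tissue by limma: Emp3 probe 4348 was at 0.20 ± 0.25 and probe 11822 at 0.27 ± 0.38 in spleen (SD, n = 4; adjusted p = 0.204 and 0.214), and at -0.04 ± 0.10 and 0.05 ± 0.05 in thymus (SD, n = 3; adjusted p = 0.886 and 0.866).

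In spleen, 37 of the 126 matrix and integrin probes differed from the pool at an adjusted p of 0.05 in limma, or 29.4%, against 25.3% of all 20127 probes tested. Of these, 18 were higher in the mutants, where the share over all probes is 13.4%, and 19 were lower, where it is 11.9%. The share is therefore close to that of the whole array. The median log2 ratio of the members was -0.01, against 0.04 over all probes, and the median size of a ratio was 0.155, against 0.171. No member reached a 2-fold change in size: the extremes were thrombospondin 1 (Thbs1, probe 20381) at -0.94 and the collagen chain Col25a1 (probe 9210) at 0.61. All 37 had the same sign in all 4 mice. The test favours probes whose mice agree, and the 4 mice share 1 pool, so this is no separate support. For 35 of the 37, the mean of the arrays with the mutant in Cy5 and the mean of those with the mutant in Cy3 lay on the same side of 0. The exceptions were Col25a1 probe 9210, at 1.47 with the mutant in Cy5 and -0.26 with the mutant in Cy3, and Itgb1 probe 19329, at -0.06 with the mutant in Cy5 and 0.64 with the mutant in Cy3. Without mouse 2, 22 members were called (12.1% of all probes), and without mouse 4, 19 (12.2% of all probes); 18 of the 37, 14 lower and 4 higher, passed without each mouse in turn. A variance for the pool, assumed to equal that of 4 mutant mice, left 16 members (8.39% of all probes), and a test against a 1.2-fold change left 9, all lower (4.41% of all probes). With the running median of 99 neighbouring IDs removed, 21 were called (19.1% of all probes). A joint fit of both tissues, which shares 1 spread between them, called 46 (37.9% of all probes).

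**Figure D1:**
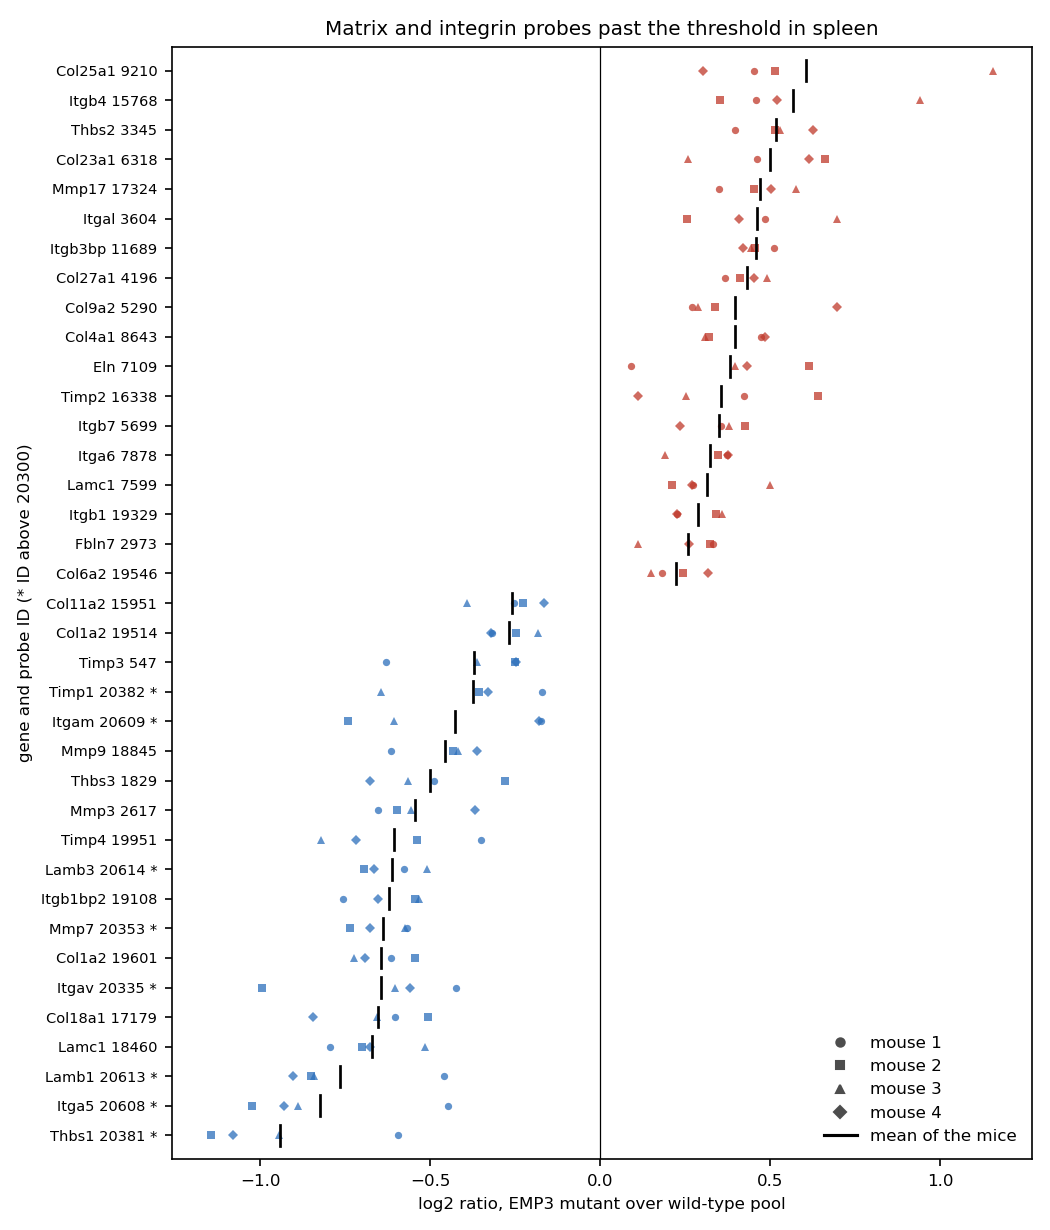
Log2 ratios of EMP3 mutant over wild-type pool in spleen for the 37 matrix and integrin probes past an adjusted p of 0.05 in limma, one row per probe. Symbols are the 4 mice, vertical ticks their mean, red is higher and blue lower; asterisks mark the 8 probes with an ID above 20300, all of them lower.

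The position of a probe in the deposited table moved with both higher and lower calls. At the high end, IDs 6301 to 6400 and 11601 to 11700 had median spleen ratios of 0.30. There 49 of 100 and 42 of 99 tested probes were called higher. The 476 tested probes with an ID above 20300 had a median spleen ratio of -0.49, and 60.3% of them were called lower. In bins of 100 IDs the median lay between -0.67 and -0.33 there, against -0.13 to 0.30 in the 203 bins up to ID 20300. The run was low in each mouse, with medians of -0.43, -0.58, -0.53 and -0.44 in mice 1 to 4, and with both dye orientations, at -0.42 with the mutant in Cy5 and -0.55 with the mutant in Cy3. In thymus its median was -0.06. Of the members, 9 tested probes lie in it (Itga4, Itgav, Mmp7, Thbs1, Timp1, Itga5, Itgam, Lamb1 and Lamb3), all were below 0 in spleen and 8 were among the 19 called lower. Without that run, 29 of 117 members were called, or 24.8% against 24.2% of all probes, with 18 higher (13.5% of all probes) and 11 lower (10.7% of all probes), and the median of the members was 0.01. The part of the run in the lower calls, and of ID position in the higher calls, was not tested. With the running median of 99 neighbouring IDs removed, 19 of the 37 calls remained, 8 higher and 11 lower, and 18 ended. Of the 8 called members in the run, Thbs1 and Mmp7 passed and Itgav, Timp1, Itga5, Itgam, Lamb1 and Lamb3 missed. The neighbours' medians and these losses are given below with each gene.

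**Figure D2:**
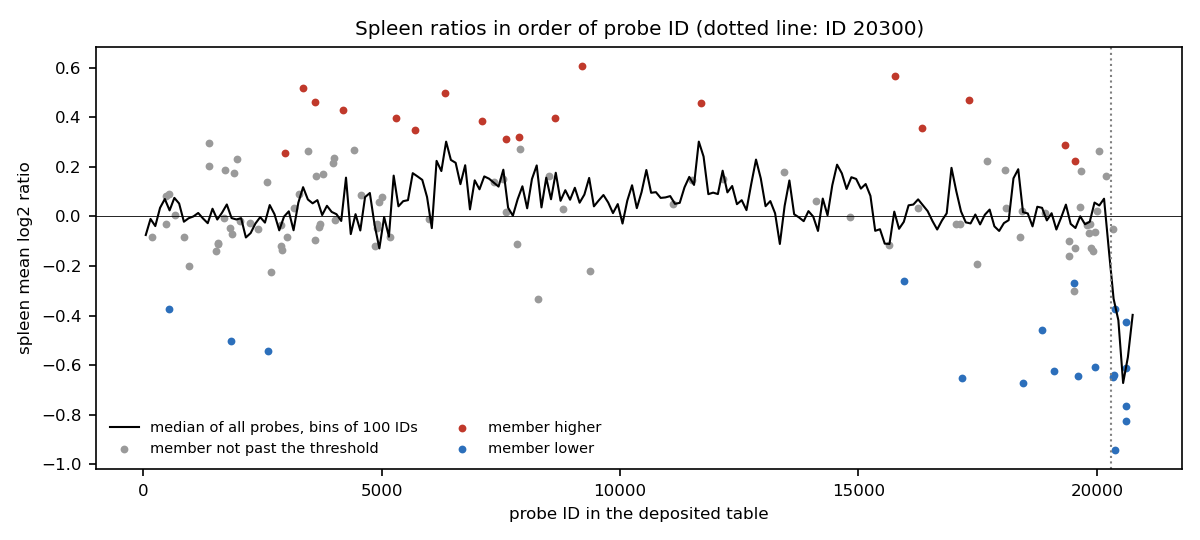
Spleen mean log2 ratio of each matrix and integrin probe (points) against its ID in the deposited table, with the median of all probes in bins of 100 IDs (line). Red points are called higher, blue lower and grey not called. Right of the dotted line at ID 20300 the line drops to between -0.67 and -0.33, and the 9 tested members there all lie below 0.

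Among the matrix proteins, 10 of 73 tested probes were higher and 9 lower, with a median of 0.02. Among the integrin chains, 5 of 26 were higher and 3 lower, with a median of -0.02, and among MMPs and TIMPs 2 of 24 were higher and 6 lower, with a median of -0.03. Called shares were 26.0%, 30.8% and 33.3% in these classes, against 25.3% of all probes (13.4% higher and 11.9% lower). Without the IDs above 20300 they were 22.9%, 22.7% and 27.3%, against 24.2% of all probes. All 3 lower integrin chains lie in that run, so the 22 integrin probes below it held 5 higher and 0 lower calls in limma. The class medians of the single mice overlapped: they ran from -0.02 to 0.07 for matrix proteins, from -0.03 to 0.09 for integrin chains and from -0.10 to 0.05 for MMPs and TIMPs.

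**Figure D3:**
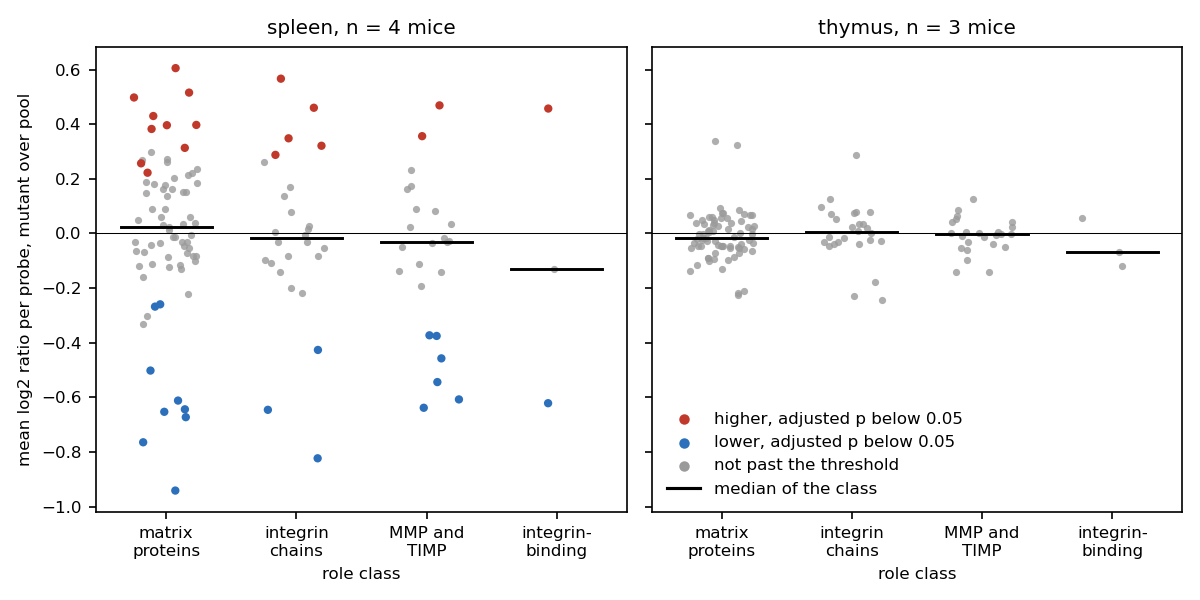
Mean log2 ratio of each tested probe in spleen (left) and thymus (right) by role class; horizontal bars are class medians, and red and blue points passed an adjusted p of 0.05 in limma. In spleen the class medians lay between -0.03 and 0.02 for the 3 large classes with calls on both sides, and in thymus no probe passed.

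Fibrillar collagens, which form the banded fibres of connective tissue, had 1 higher and 3 lower calls among 20 probes. The share called was 20%, against 25.3% of all probes. Col1a2, the second chain of type I collagen, was at -0.62, -0.54, -0.72 and -0.69 in the 4 mutant spleens at probe 19601. The mice lay within a narrow band and none came near 0. This gave -0.64 ± 0.08 (SD, n = 4), a 1.56-fold lower signal than in the pool (limma adjusted p = 0.0040), where the neighbouring IDs had a median of 0.04. A further Col1a2 probe, 19514, was also lower at -0.27 ± 0.07 (SD, n = 4; limma adjusted p = 0.0267), while probes 3162 and 18436 were at 0.03 and 0.02. Col11a2, a chain of cartilage type XI collagen, was lower at -0.26 ± 0.10 (SD, n = 4; limma adjusted p = 0.0363). These last 2 calls ended when 1 mouse was left out, any mouse for Col11a2 and mouse 1, 2 or 4 for Col1a2 probe 19514 (limma adjusted p up to 0.104 and 0.108), and with the running median removed (limma adjusted p = 0.0631 and 0.0510). Neither Col1a1, the partner of Col1a2, with -0.12 and -0.03 at its 2 probes, nor Col3a1, at -0.30, passed the threshold.

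Col27a1, a fibrillar chain of cartilage, was the 1 fibrillar collagen called higher. Probe 4196 was at 0.37, 0.41, 0.49 and 0.45 in mice 1 to 4, so that all 4 mutants lay above the pool by a similar amount. The mean was 0.43 ± 0.05 (SD, n = 4; limma adjusted p = 0.0062), with neighbours at 0.14. It was at 0.27 with the running median removed and passed (limma adjusted p = 0.0289). Probe 16247 of the same gene was at 0.03 and did not pass.

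Type IV collagen of the basement membrane was represented by 5 probes, and 1 was called (20%, against 25.3% of all probes). Col4a1 probe 8643 was higher at 0.40 ± 0.10 (SD, n = 4; limma adjusted p = 0.010), with mice at 0.47, 0.32, 0.31 and 0.48. The other 3 Col4a1 probes were at -0.16, -0.10 and 0.04, and its partner chain Col4a2 was at 0.18. With the running median of neighbouring IDs removed, Col4a1 probe 8643 was at 0.24 and missed the threshold (limma adjusted p = 0.0629); without mouse 4 it was at 0.37 (adjusted p = 0.0524).

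Among the 18 probes of other collagens, 4 were higher and 1 lower, or 27.8% called against 25.3% of all probes. Col18a1, whose C-terminal fragment is endostatin, was lower: probe 17179 was at -0.60, -0.51, -0.66 and -0.85 in the 4 mutants, or -0.65 ± 0.14 (SD, n = 4; 1.57-fold, limma adjusted p = 0.0042). Its neighbours in ID order were at 0.01, and Col18a1 probe 14826 was at -0.00375. The higher ones included 2 membrane-spanning collagens. Col25a1 probe 9210 was at 0.45, 0.51, 1.15 and 0.30, with mouse 3 far above the others, and its mean of 0.61 ± 0.38 (SD, n = 4; limma adjusted p = 0.0295) is the one whose dye orientations differ in sign, as given above. Col23a1 probe 6318 was at 0.50 ± 0.18 (SD, n = 4; limma adjusted p = 0.0110) with mice from 0.26 to 0.66, and its probe 1372 at 0.30 did not pass. Neighbours of probe 6318 had a median of 0.26, and with the running median removed it was at 0.23 and missed the threshold (limma adjusted p = 0.0900). Col9a2, a chain of a collagen that coats cartilage fibrils, was at 0.27, 0.34, 0.29 and 0.70, so that mouse 4 stood above the rest, and averaged 0.40 ± 0.20 (SD, n = 4; limma adjusted p = 0.0261). Col6a2, a chain of microfibrillar type VI collagen, was higher at 0.22 ± 0.07 (SD, n = 4; limma adjusted p = 0.0485) at probe 19546 and at -0.11 at probe 1568; with the running median removed it missed the threshold at 0.25 (limma adjusted p = 0.0510). The Col18a1 call held without each mouse in turn. The higher calls did not: Col23a1 missed without mouse 4, Col25a1 and Col9a2 without mouse 2 or 4, and Col6a2 without any 1 mouse (limma adjusted p up to 0.0531, 0.0811, 0.0760 and 0.173).

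Laminins are cross-shaped trimers of an alpha, a beta and a gamma chain. Of 9 laminin probes 1 was higher and 3 lower, and the 4 calls fell on 3 genes. The share called was 44.4%, against 25.3% of all probes. Lamc1, the gamma chain of most laminins, was called in both directions: probe 18460 was at -0.80, -0.70, -0.52 and -0.68 in the 4 mutant spleens, while probe 7599 was at 0.27, 0.21, 0.50 and 0.27. All mice therefore lay below the pool at the first probe and above it at the second. The means were -0.67 ± 0.12 and 0.31 ± 0.13 (SD, n = 4; limma adjusted p = 0.0040 and 0.0269), and probe 18070 was at 0.19. Probe 7599 was at 0.22 with the running median removed and missed the threshold (limma adjusted p = 0.0795). The higher call of probe 7599 also ended without mouse 2, 3 or 4 (limma adjusted p up to 0.0844), and the lower call of probe 18460 held without each mouse in turn. The beta chains Lamb1 (probe 20613) and Lamb3 (probe 20614) were lower at -0.76 ± 0.20 and -0.61 ± 0.08 (SD, n = 4; limma adjusted p = 0.0044 and 0.0040). Both lie in the run of IDs above 20300, where their neighbours had a median of -0.61. With the running median removed they were at -0.18 and -0.03 and missed the threshold (limma adjusted p = 0.168 and 0.776). For Lamb1, mouse 1 at -0.46 stood apart from the other mice at -0.85, -0.84 and -0.90. Lamb3 also differed between dyes, with -0.17 for the mutant in Cy5 and -1.05 for the mutant in Cy3. The alpha chains Lama1 and Lama4 were at 0.27 and 0.15, Lamb2 at -0.07 and Lamc3 at 0.15, and none of these passed.

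The matrix glycoproteins and proteoglycans gave 3 higher and 2 lower calls among 21 probes, and 3 of the 5 were thrombospondins. The share called in this class was 23.8%, against 25.3% of all probes. Thrombospondins are secreted glycoproteins that bind cells, matrix and growth factors, and thrombospondin 1 is known for limiting vessel growth and activating TGF-beta. Thbs1 probe 20381 was at -0.60, -1.15, -0.95 and -1.08 in the 4 mutant spleens. Mouse 1 was nearest to the pool, and the other 3 lay close together further below it. The mean was -0.94 ± 0.25 (SD, n = 4), a 1.92-fold lower signal (limma adjusted p = 0.0041), nearly equal with the mutant in either dye (-0.94 in both orientations). Its neighbours had a median of -0.31, and with the running median removed it still passed the threshold in limma. Thbs2 went the other way: probe 3345 was at 0.40, 0.51, 0.53 and 0.63, and averaged 0.52 ± 0.09 (SD, n = 4; 1.43-fold, limma adjusted p = 0.0050). Its second probe, 20197, was at 0.16 and did not pass. Thbs3 was lower at -0.50 ± 0.17 (SD, n = 4; limma adjusted p = 0.0094), and Thbs4, with mice from -0.60 to 0.01, did not pass.

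Elastin (Eln, probe 7109), the rubber-like fibre protein of vessel walls, was higher at 0.38 ± 0.22 (SD, n = 4; limma adjusted p = 0.0336), with mouse 1 at 0.09 and the others between 0.40 and 0.61. Fbln7, a fibulin, was higher at 0.26 ± 0.10 (SD, n = 4; limma adjusted p = 0.0393). By dye, Eln was at 0.70 with the mutant in Cy5 and 0.06 with the mutant in Cy3. Eln was at 0.24 and Fbln7 at 0.27 with the running median removed, and both missed the threshold (limma adjusted p = 0.138 and 0.0658). The Eln call ended without mouse 2, 3 or 4 and the Fbln7 call without mouse 1, 2 or 4 (limma adjusted p up to 0.113 and 0.137). None of the 5 fibronectin (Fn1) probes passed, with ratios from -0.08 to 0.21, and none of the 3 Sparc probes. The small proteoglycans decorin (Dcn) and biglycan (Bgn) were at 0.01 and -0.13. For Bgn probe 19878 mouse 1 was at -1.07 and the other mice at 0.14, 0.13 and 0.28.

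The promoters of 4 matrix genes with called probes, 2 lower and 2 higher, are shown so that the start regions behind these calls can be compared. They were chosen after their values were seen. Lamb1 missed the threshold with the running median removed (-0.18, limma adjusted p = 0.168). Col1a2 probes 3162 and 18436, Thbs2 probe 20197 and Col27a1 probe 16247 did not pass. RefSeq promoter entries of build GRCm38.p6 were found for 58 of the 81 member genes. Each sequence holds the 250 bases before the gene's start, read on the gene's strand, and capitals mark matches on either strand to 4 motifs. The TATA box was searched as TATAAA. The GC box, bound by Sp1, was searched as GGGCGG. The CCAAT box was searched as the letters of its name, and the AP-1 site as TGANTCA.
Col1a2 (lower, chr6:4505368-4505617, + strand): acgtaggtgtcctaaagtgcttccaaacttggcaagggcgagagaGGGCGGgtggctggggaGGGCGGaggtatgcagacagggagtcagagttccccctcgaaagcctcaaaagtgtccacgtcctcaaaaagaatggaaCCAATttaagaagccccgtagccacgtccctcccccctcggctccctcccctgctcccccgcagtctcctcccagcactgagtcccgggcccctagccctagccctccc
Lamb1 (lower, chr12:31265043-31265292, + strand): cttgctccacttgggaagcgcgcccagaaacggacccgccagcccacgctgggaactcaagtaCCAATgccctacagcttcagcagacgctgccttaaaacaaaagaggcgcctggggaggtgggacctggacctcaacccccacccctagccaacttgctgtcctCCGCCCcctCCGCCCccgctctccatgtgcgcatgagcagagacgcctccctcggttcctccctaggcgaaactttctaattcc
Thbs2 (higher, chr17:14694263-14694512, - strand): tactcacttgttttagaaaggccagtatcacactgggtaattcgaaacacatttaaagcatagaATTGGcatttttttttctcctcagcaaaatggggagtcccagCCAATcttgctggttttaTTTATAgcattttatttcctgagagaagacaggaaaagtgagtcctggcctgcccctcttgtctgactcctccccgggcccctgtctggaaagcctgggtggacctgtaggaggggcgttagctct
Col27a1 (higher, chr4:63215162-63215411, + strand): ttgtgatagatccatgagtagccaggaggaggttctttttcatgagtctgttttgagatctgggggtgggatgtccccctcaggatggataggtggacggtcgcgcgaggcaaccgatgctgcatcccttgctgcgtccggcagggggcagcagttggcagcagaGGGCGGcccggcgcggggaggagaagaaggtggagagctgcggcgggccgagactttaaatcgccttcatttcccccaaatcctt

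The lower genes Col1a2 and Lamb1 held 2 GC boxes and 1 CCAAT box each, Col27a1 held 1 GC box, and Thbs2 held 2 CCAAT boxes and 1 TATA box. No AP-1 match was found in these 4 windows. Over 32851 promoters of the same length, 32.7% held a GC box, 33.8% a CCAAT box, 12.4% a TATA box and 6.75% an AP-1 match. These matches are letters in the window, and no binding was measured. Whether any motif goes with the direction of a call was not tested.

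Integrin alpha chains, which set the ligand of the pair, gave 2 higher and 3 lower calls among 13 probes. The share called was 38.5%, against 25.3% of all probes. Itga5, the fibronectin receptor chain, was at -0.45, -1.03, -0.89 and -0.93 in the 4 mutant spleens at probe 20608, or -0.82 ± 0.26 (SD, n = 4; 1.77-fold, limma adjusted p = 0.0051). Itgav, the alpha chain of the vitronectin receptors, was at -0.42, -0.995, -0.60 and -0.56 at probe 20335, or -0.65 ± 0.25 (SD, n = 4; limma adjusted p = 0.0088). Mouse 1 lay nearest to the pool for both. Their neighbours in ID order had medians of -0.63 and -0.37, and with the running median removed they were at -0.21 and -0.28 and missed the threshold (limma adjusted p = 0.151 and 0.0829). The 2 Itgav arrays of mouse 4 differed in sign, at 0.365 with the mutant in Cy5 and -1.485 with the mutant in Cy3. Itgam, the CD11b chain of myeloid cells, was at -0.43 ± 0.29 (SD, n = 4; limma adjusted p = 0.0452), with neighbours at -0.63. Itgam turned to 0.18 with the running median removed and did not pass (limma adjusted p = 0.229). Itgal, the CD11a chain of lymphocyte integrin LFA-1, was higher at 0.46 ± 0.18 (SD, n = 4; limma adjusted p = 0.0143) at probe 3604, with mice from 0.26 to 0.70, while its probe 19849 was at -0.03. By dye, Itgal probe 3604 was at 0.81 with the mutant in Cy5 and 0.12 with the mutant in Cy3. Its Cy3 arrays of mice 1 and 3 were below 0, at -0.08 and -0.11. Itga6, a laminin receptor chain, was higher at 0.32 ± 0.09 (SD, n = 4; limma adjusted p = 0.0180), and at 0.21 with the running median removed, where it missed the threshold (adjusted p = 0.0675). Itga4, a chain of the receptor for VCAM-1 and fibronectin, was at -0.05 and was the 1 tested member in the run of IDs above 20300 that did not pass. Itgam missed the threshold without mouse 2, 3 or 4, Itgal without mouse 4, and Itga6 without mouse 2 or 4 (limma adjusted p up to 0.135, 0.0536 and 0.0801).

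Integrin beta chains gave 3 higher and 0 lower calls among 13 probes in limma, or 23.1% called against 25.3% of all probes. Itgb4, the partner of Itga6 in hemidesmosomes, was at 0.46, 0.35, 0.94 and 0.52 at probe 15768, with mouse 3 the highest, or 0.57 ± 0.26 (SD, n = 4; 1.48-fold, limma adjusted p = 0.0147). Itgb7, which pairs with Itga4 in homing to the gut, was at 0.35 ± 0.08 (SD, n = 4; limma adjusted p = 0.0134), and at 0.20 with the running median removed, where it missed the threshold (adjusted p = 0.0797). Itgb1, the beta chain shared by most matrix receptors, had 6 probes: probe 19329 was higher at 0.29 ± 0.07 (SD, n = 4; limma adjusted p = 0.0221), with the dye orientations differing in sign, and the other 5 lay between -0.08 and 0.14. The leukocyte chain Itgb2 was at 0.17 and the 3 Itgb5 probes at -0.20 to -0.01, and none of these passed. The call ended without mouse 4 for Itgb4, without mouse 2 for Itgb7 and without mouse 2, 3 or 4 for Itgb1 (limma adjusted p up to 0.0549, 0.0633 and 0.0915). The integrin-tail binders were called on opposite sides: Itgb1bp2 (melusin), a muscle protein, was lower at -0.62 ± 0.11 at probe 19108 and at -0.13 at probe 19545, and Itgb3bp was higher at 0.46 ± 0.04 (SD, n = 4; limma adjusted p = 0.0041 for Itgb1bp2 probe 19108 and 0.0051 for Itgb3bp). The neighbours of Itgb3bp probe 11689 had a median of 0.37, and with the running median removed it was at 0.10 and missed the threshold (limma adjusted p = 0.310).

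Among 13 MMP probes 1 was higher and 3 were lower, or 30.8% called against 25.3% of all probes. Mmp3 (stromelysin 1) was at -0.65, -0.60, -0.56 and -0.37 at probe 2617, or -0.54 ± 0.12 (SD, n = 4; limma adjusted p = 0.0053), with neighbours at 0.02. Mmp7 (matrilysin) was at -0.57, -0.74, -0.57 and -0.68, or -0.64 ± 0.08 (SD, n = 4; limma adjusted p = 0.0040), with neighbours at -0.34, and at -0.29 with the running median removed, where it passed (adjusted p = 0.0278). Mmp9 (gelatinase B) was lower at -0.46 ± 0.11 (SD, n = 4; limma adjusted p = 0.0074) at probe 18845 and at -0.03 at probe 2246. All 4 mutants lay below the pool for each of these probes. Mmp17, a membrane-anchored MMP, was at 0.35, 0.45, 0.57 and 0.50, all above the pool, or 0.47 ± 0.10 (SD, n = 4; limma adjusted p = 0.0063), with neighbours at -0.09. Mmp2 (gelatinase A) was at -0.05, and the 2 probes of Mmp14, which activates Mmp2, were at 0.23 and -0.02, none of them past the threshold.

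The 4 TIMP genes each had 1 called probe, 1 higher and 3 lower among 11. The share called was 36.4%, against 25.3% of all probes. Timp2 probe 16338 was at 0.42, 0.64, 0.25 and 0.11, or 0.36 ± 0.23 (SD, n = 4; limma adjusted p = 0.0458), and its probe 18094 was at 0.03. Timp4 probe 19951 was at -0.35, -0.54, -0.82 and -0.72, or -0.61 ± 0.21 (SD, n = 4; limma adjusted p = 0.0077), and its probes 3611 and 19998 were at 0.16 and 0.02. All mice of a probe thus lay on 1 side, with spreads wide against the mean for Timp2. By dye, Timp2 probe 16338 was at 0.03 with the mutant in Cy5 and 0.68 with the mutant in Cy3. Timp1 probe 20382 was lower at -0.38 ± 0.20 and Timp3 probe 547 at -0.37 ± 0.18 (SD, n = 4; limma adjusted p = 0.0299 and 0.0260). Timp1 probe 20382 lies in the run of IDs above 20300 with neighbours at -0.31, and with the running median removed it was at -0.07 and missed the threshold (limma adjusted p = 0.636). Timp2 also missed it there, at 0.31 (limma adjusted p = 0.0899), and Timp3 and Timp4 passed. The other probes of these 2 genes, 1 for Timp1 and 3 for Timp3, lay between -0.14 and 0.09. The Timp4 call held without each mouse in turn, the Timp2 call ended without any 1 mouse, and those of Timp1 and Timp3 without mouse 2, 3 or 4 (limma adjusted p up to 0.133, 0.0927 and 0.0638).

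Probes annotated to the same gene often differed in their call. Of the 27 member genes with more than 1 tested probe, 73 probes in all, 11 had no called probe and 14 had exactly 1. Col1a2 had 2 probes called in the same direction, Lamc1 had probes called in both, and 0 of the 27 had every probe called. The same counts for genes outside the members are not given here, so this cannot be called particular to the members. The median range between the spleen ratios of 1 gene's probes was 0.33. The median SD between mice of a member probe was 0.152, but a range between probe means and an SD between mice are unlike measures. A gene named above therefore stands for the probe given with it, and the probe sequences were not used here.

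**Figure D4:**
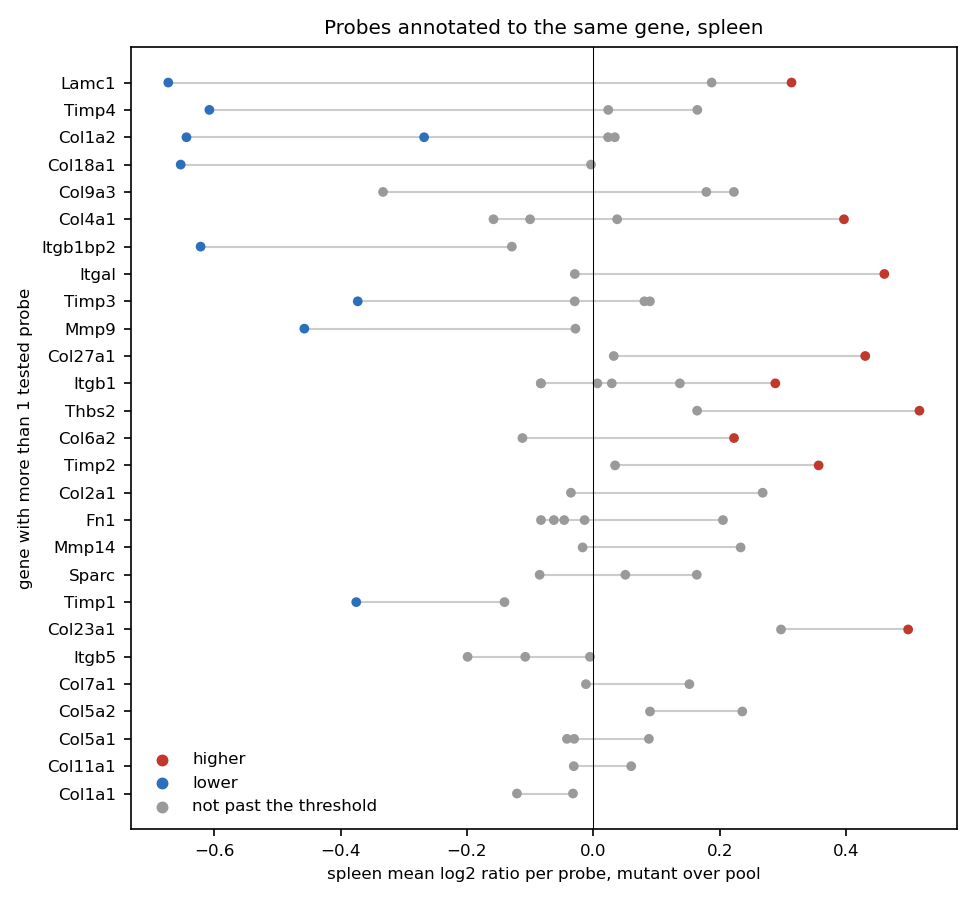
Spleen mean log2 ratios (EMP3 mutant over wild-type pool) of all tested probes for the 27 member genes with more than 1, joined by a grey line per gene and ordered by range. Red and blue points passed an adjusted p of 0.05 in limma as higher or lower; Lamc1 spans the widest range, from -0.67 to 0.31.

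In thymus no member passed the threshold in limma, and 0 of 20130 probes over the whole array did. Unadjusted p values under 0.05 were found for 5 of 126 members and 725 of all probes. The members had a median ratio of -0.00417 and a median size of 0.045, against 0.046 over all probes. All 3 mice shared a sign for 34 of the 126, and the share of all probes that did so was not counted. Fbln2, a fibulin of vessel walls, had the smallest p among the members: it was at 0.44, 0.16 and 0.37 in mice 1, 3 and 4, or 0.32 ± 0.14 (SD, n = 3; limma adjusted p = 0.866, unadjusted p = 0.0033). Itgav probe 20335 was at -0.05, -0.47 and -0.21, or -0.24, and Itgb4 probe 15768 was at 0.17, 0.09 and 0.12, or 0.13. These last 2 lay on the same side as in spleen. Mmp2 was at 0.12 and Thbs4 at -0.22, the remaining 2 with an unadjusted p under 0.05. With larger unadjusted p, Bgn was at 0.34, the Itgb1 probes 8795, 846 and 171 at 0.10, 0.08 and -0.23, Lamc3 at -0.23, Itga5 at -0.18 and Col9a3 probe 17696 at -0.12. For Bgn the 3 mice were at 0.24, 0.83 and -0.05. The negative correlation between the dye-exchanged thymus arrays, given above, applies to all these values.

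The mutant ratio itself was set against the other tissue in a fit of both. It differed between spleen and thymus for 22 of 126 members in limma, or 17.5%, against 13.9% of all probes. The spleen ratio was above that of thymus for 9 (5.91% of all probes) and below it for 13 (8.04% of all probes). Of the 22, 21 were also called in spleen alone, the exception being Col9a3 probe 17696, and 5 lie in the run of IDs above 20300. Without that run 17 of 117 passed (13.1% of all probes), with 9 above (5.95% of all probes) and 8 below (7.15% of all probes). With mouse as a replicate block, since the same animals gave both tissues, 6 of 125 members passed, against 3.37% of all probes, all of them with the spleen ratio below that of thymus. Without mouse 3 or without mouse 4, 0 members passed in limma, with 30 and 28 at an unadjusted p under 0.05, and the shares of all probes that passed were 0.0508% and 0%. Among all probes, 4424 of 19692 and 3806 of 19350 had an unadjusted p under 0.05 in these fits.

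Col1a2 probe 19601 had the smallest p: spleen minus thymus was -0.72 ± 0.08 (SE; limma adjusted p = 0.0046), with -0.64 in spleen and 0.08 in thymus, where mice 1, 3 and 4 were at 0.03, 0.13 and 0.07. The mice of the tissues did not overlap. Col18a1 probe 17179 followed at -0.71 ± 0.09, Lamc1 probe 18460 at -0.58 ± 0.09, Mmp7 at -0.54 ± 0.09, Mmp3 at -0.55 ± 0.09 and Thbs1 at -0.87 ± 0.15 (SE; limma adjusted p from 0.0055 for Col18a1 to 0.0097 for Thbs1). On the other side, Col27a1 probe 4196 was at 0.47 ± 0.08 and Thbs2 probe 3345 at 0.45 ± 0.08 (SE; limma adjusted p = 0.0083 and 0.0119). The thymus ratios of these 8 probes lay between -0.10 and 0.08. With the replicate block, Col18a1, Col1a2 and Thbs1 passed (limma adjusted p = 0.0435 for each) and the other 5 missed, with adjusted p from 0.0572 to 0.0771. If the thymus arrays with the mutant in Cy3 are the ones still to be turned, a reading added after seeing the data, 26 members differed between the tissues, and these 8 kept their direction and passed. The share of all probes that passed under this reading is not given here, so the 26 cannot be set against the array. These 8 had been picked for their small p, so their passing is no separate support. With a variance for the pools 2 members passed (1.34% of all probes), and with the running median of neighbouring IDs removed 13 (10.2% of all probes).

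**Figure D5:**
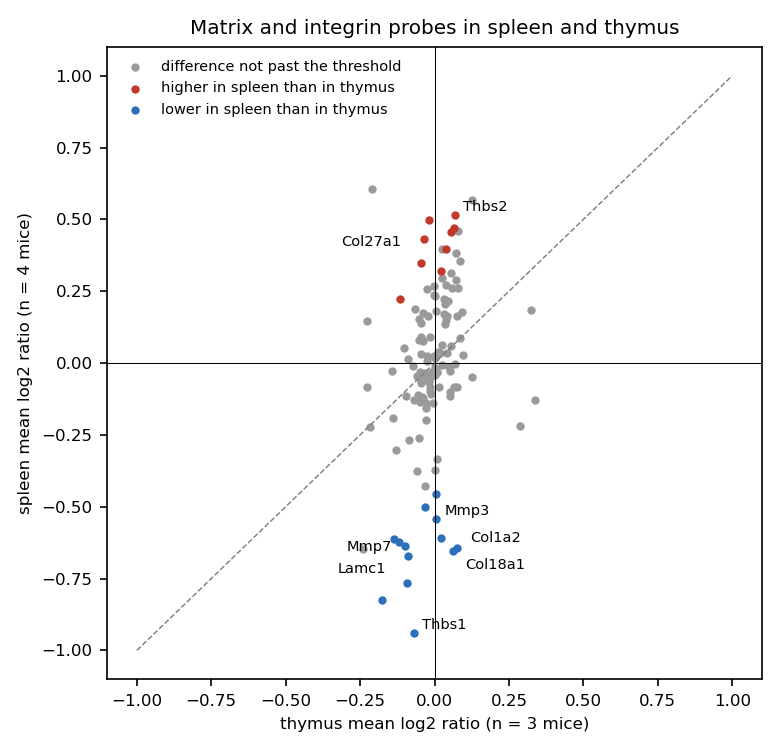
Mean log2 ratio in spleen (vertical, n = 4 mice) against thymus (horizontal, n = 3 mice) for the 126 tested matrix and integrin probes, with the line of equal values dashed. Red and blue points differ between the tissues at an adjusted p of 0.05 in limma; the points spread along the spleen axis from -0.94 to 0.61 and stay near 0 in thymus.

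Genes that make, mature or read the matrix without being members were counted from fixed lists. Collagen maturation had 2 higher and 7 lower calls among 32 spleen probes, or 28.1% called, against 25.3% of all probes (13.4% higher and 11.9% lower). Lysyl oxidase (Lox), which cross-links collagen and elastin, was lower at probe 1634 (-0.68 ± 0.11) and at probe 20341 (-0.82 ± 0.15) but at 0.09 at probe 18465, and the procollagen processing enhancer Pcolce was lower at probe 1524 (-0.63 ± 0.08) and at probe 20666 (-0.92 ± 0.26) but at 0.13 at probe 3585 (SD, n = 4; limma adjusted p = 0.0040, or 0.0043 for Pcolce probe 20666). The collagen prolyl hydroxylase P3h2 was lower at -0.83 ± 0.12 (SD, n = 4; limma adjusted p = 0.0040), and the other lower ones were Loxl3 (-0.75, with its other probe at 0.03) and Plod1 (-0.46, with others at 0.24 and 0.16). Tgm2 (0.45) and Crtap (0.38, with its other probe at -0.07) were the higher ones, and Tgm2 missed the threshold with the running median removed (0.32, limma adjusted p = 0.0738). Lox probe 20341 and Pcolce probe 20666 lie in the run of IDs above 20300, with neighbours at -0.33 and -0.57. With the running median removed they were at -0.49 and -0.39 and passed (limma adjusted p = 0.0103 and 0.0304). Lox probe 1634 and Pcolce probe 1524 lie outside that run.

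Integrin adaptors and signalling proteins had 2 higher and 6 lower calls among 21 spleen probes, or 38.1% called, against 25.3% of all probes (13.4% higher and 11.9% lower). The actin linkers vinculin (Vcl, -0.72 ± 0.19) and talin 1 (Tln1, -0.58 ± 0.23) were lower (SD, n = 4; limma adjusted p = 0.0044 and 0.0111), as were Ilk, the integrin-linked kinase (-0.49), and its partners Parva (-0.34, with its other probe at -0.12) and Lims1 (-0.75), and Rasgrp2 (-0.59). Zyx (0.46) and Src (0.25) were higher, although the other Zyx probe, 8302, was at -0.25 and Src missed the threshold with the running median removed (limma adjusted p = 0.0629). Lims1 lies in the run of IDs above 20300 with neighbours at -0.61, and with the running median removed it was at -0.17 and missed the threshold (limma adjusted p = 0.206). The further lists were called at shares of 20.0% to 33.3%, around that of all probes. Further matrix proteins had 4 higher (Ccn1, Tgfbi, Comp and Tnc, 0.30 to 0.33) and 4 lower calls among 30, the lower ones being Tnxb (-0.71), Mfap2 (-0.58), Emilin1 (-0.41) and Acan (-0.30). Other probes of Ccn1, Tnc, Mfap2 and Acan lay between -0.14 and 0.04 and did not pass. Mfap2 lies in the run of IDs above 20300 with neighbours at -0.58. Removing the running median left Mfap2 at -0.02, Tgfbi at 0.24 and Comp at 0.07, and these 3 missed the threshold (limma adjusted p = 0.844, 0.127 and 0.479). Other matrix receptors had Lair1 (0.43) and Sdc3 (0.29) higher and Mrc2 (-0.41, with its other probe at 0.16) and Ddr2 (-0.25) lower among 12. Other proteases had Ctsb (0.72, with its other probe at 0.19), Adamts5 (0.64) and Adamts4 (0.58) higher and Adam15 (-0.36) lower among 20. Adamts5 and Adamts4 lie in the run of IDs above 20300, with neighbours at -0.33, and were at 0.97 and 0.90 with the running median removed. TGF-beta signalling had Smad4 (0.50) and Tgfb3 (0.41) higher and Ski (-0.92), Tgfb1 (-0.89) and Smad2 (-0.30) lower among 19. The other probes of these genes did not pass, with Smad4 probe 519 at -0.20, Ski probe 19299 at 0.0094, Tgfb1 probe 5630 at -0.17 and Smad2 probe 20731 at -0.09. Tgfb1 probe 20380 lies in the run of IDs above 20300 with neighbours at -0.31, and with the running median removed it was at -0.58 and passed, while Smad4 (0.32) and Smad2 (-0.23) missed the threshold (limma adjusted p = 0.0182, 0.125 and 0.0571). No probe of these lists passed in thymus in limma.

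Markers of cell types that make or carry matrix were called in spleen at shares no higher than the 25.3% of all probes, with 25% for fibroblast and stroma and 15.4% for endothelium. All these calls were lower, and the share of all probes called lower was 11.9%. Of 12 probes for fibroblast and stroma, Des (-0.60), Cxcl12 probe 4382 (-0.47) and Thy1 probe 2015 (-0.30) were lower and 0 higher in limma. The other probes of this list did not pass and lay between -0.25 and 0.22, with Cxcl12 probes 1456 and 18311 at 0.11 and 0.22, Thy1 probe 17331 at -0.10 and Pdgfra at 0.19 and -0.25. Of 13 endothelial probes Cdh5 probe 20279 (-0.72) and Tek (-0.61) were lower and 0 higher, and the others lay between -0.21 and 0.47. Tek lies in the run of IDs above 20300 with neighbours at -0.29, and with the running median removed it was at -0.30 and passed (limma adjusted p = 0.0482). The median of the fibroblast probes was -0.18, with single mice between -0.28 and -0.07, and that of the endothelial probes -0.08. Over all probes the spleen median was 0.04. Among markers of other cells, macrophage C1qb (-0.42) and fat Adipoq (-0.47) were lower, each as the 1 call of 2 and 6 probes. Of 7 thymic epithelium probes Psmb11 (0.55) and Krt14 (0.40) were higher and Aire (-0.54) lower in spleen; with the running median removed Psmb11 was at 0.31 and passed and Krt14 at 0.26 and missed the threshold (limma adjusted p = 0.0305 and 0.0998). None of the platelet, B cell, T cell or pancreas probes passed in limma, with 4, 2, 4 and 2 tested. The part of cell type shares in the matrix results was not tested.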

How the data were processed

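The deposited table holds 1 log2 ratio per probe and array, as read here, for 16 two-colour arrays. Per the labels' protocols the RNA was turned into cDNA and coupled to Cy3 or Cy5 in an indirect labelling. The sources used here name no scanner, image software, background correction or normalization. On each array a constant of 15.1 to 16.9 in size, at 25 to 137 probes, was set to missing. Its sign followed the mutant's dye, so the deposited log2 ratios were read as sharing 1 orientation. Thymus mouse 2 was left out: at 83.7% of probes its 2 arrays summed to the same value within 0.01, a share of 1.33% to 6.08% for other mice.

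The mean of a mouse's 2 arrays was 1 replicate, and a probe needed 3 mice. limma 3.58.1 in R 4.3.3 tested the mean ratio against 0 in each tissue alone, because the tissues vary unequally, and the difference in a fit of both without a block. P-values were adjusted over all probes by Benjamini-Hochberg at 0.05. Nothing says that the mice came from separate litters or days. Spleen and thymus are paired by animal, although deviations of a mouse in the 2 tissues correlated at only -0.086 to -0.010. The fits were tested on simulated data. Python 3.11.15 with pandas 2.3.3 made counts and figures.

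Gene names come from the platform annotation, and the gene numbers of all 127 member probes are in RefSeq's table. Named with values were, per direction, the 12 called spleen probes with the largest ratio, the 6 thymus probes with the smallest p, the 8 smallest p of the tissue difference, their genes' other probes, and 2 probes per further list; small counts were named in full, and other members appear as context. Members and lists were chosen with earlier results of these data known. Alternatives covered the fit, array medians, ID order, dye sign, pool variance, a 1.2-fold test, gene means, placeholders, mice and robust variances. The IDs above 20300 and the thymus dye sign were added after the data had been seen.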

Additional observations from a re-analysis of the deposited data

Results flagged for a closer look

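Between spleen and thymus the mutant ratio differed beyond the threshold in limma for 22 of the named probes, as values of spleen minus thymus on the log2 scale. The ratio was lower in spleen than in thymus for Thbs1 probe 20381 (-0.87), Col1a2 probe 19601 (-0.72), Col18a1 probe 17179 (-0.71), Lamb1 probe 20613 (-0.67), Itga5 probe 20608 (-0.65), Timp4 probe 19951 (-0.63), Lamc1 probe 18460 (-0.58), Mmp3 probe 2617 (-0.55), Mmp7 probe 20353 (-0.54), Itgb1bp2 probe 19108 (-0.50), Lamb3 probe 20614 (-0.48), Thbs3 probe 1829 (-0.47) and Mmp9 probe 18845 (-0.46). It was higher in spleen for Col23a1 probe 6318 (0.52), Col27a1 probe 4196 (0.47), Thbs2 probe 3345 (0.45), Mmp17 probe 17324 (0.41), Itgb3bp probe 11689 (0.40), Itgb7 probe 5699 (0.39), Col4a1 probe 8643 (0.36), Col9a3 probe 17696 (0.34) and Itga6 probe 7878 (0.30).

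In 4 of the 46 named probes with a value in all 4 mutant spleens, the gap from 1 mouse to its nearest neighbour, as a share of the whole range, was above Dixon's 95% critical value. These were Col9a2 probe 5290 at 0.70 in mouse 4, Bgn probe 19878 at -1.07 in mouse 1, Lamb1 probe 20613 at -0.46 in mouse 1 and Itga6 probe 7878 at 0.19 in mouse 3. The gap of mouse 3 at Col25a1 probe 9210 was below that value. Chance gives such a gap in about 1 of 20 groups, and the cause was not tested.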

How the results depend on the processing

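The direction of the Cy3 arrays mattered most. Among all probes, turning these arrays left 4217 of 20127 in spleen at an unadjusted p under 0.05 in limma. For the difference this was 624 of 19948 with the Cy3 arrays turned. With their sign turned, 0 members passed in spleen and 0 for the difference in limma (21 and 5 at an unadjusted p under 0.05), and the ratio reversed for 16 named spleen probes: Timp3 (0.0983), Fbln7 (-0.13), Itgb1 (-0.35), Col6a2 (-0.11), Timp1 (0.13), Itgam (0.16), Thbs2 (-0.075), Col4a1 (-0.10), Itgb3bp (-0.10), Timp2 (-0.33), Mmp17 (-0.0139), Itgb1bp2 (0.0181), Itgav (0.17), Mmp7 (0.0081), Itga5 (0.11) and Lamb3 (0.44). The difference reversed for Col4a1 (-0.0628), Mmp17 (-0.0967) and Lamb3 (0.20). In thymus the ratio reversed for Itgb1 probes 846 (-0.0192) and 8795 (-0.11), Thbs4 (0.061), Bgn (-0.11), Itgav (0.0677) and Itga5 (0.18), and the members' median was 0.0392 against -0.00417. The count of 37 in spleen became 21 after subtracting a running median of 99 neighbouring IDs, 16 with a variance for the pool and 9 in the 1.2-fold test, and 19 to 36 without 1 mouse (leave-one-out). The count of 22 for the difference became 13 with the running median removed, 2 with a variance for the pool, 0 in the 1.2-fold test (17 at an unadjusted p under 0.05), 6 with mouse as a replicate block, and 0 to 20 without 1 mouse. The members' spleen median of -0.0128 was -0.0377 with array medians set to 0, 0.0131 without the IDs above 20300 and between -0.00233 and 0.0103 without 1 mouse, and the thymus median lay between -0.0209 and 0.00713 without 1 mouse. In thymus 0 members passed under any alternative run, in limma with 0 to 16 at an unadjusted p under 0.05. The joint fit, gene means, kept placeholders, kept thymus mouse 2 and robust variances left the counts within 1.5 times (spleen 27 to 46, difference 15 to 32). The gene means count genes and not probes, with 27 of 80 genes in spleen against 37 of 126 probes, so those counts are unlike. Apart from the Cy3 sign, direction changed at 2 of the probes run singly, both in the run above ID 20300 and with the running median removed: Itgam in spleen (0.18) and Lamb3 for the difference (0.0389). The pool, the ratios without intensities and the 3 or 4 mice limit the precision.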
